A study of Mus musculus with 2 samples.

Results

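Capillary endothelial cells, which line the smallest blood vessels, were described in single-cell RNA sequencing of the bladder of an old mouse, in which each captured transcript carries a cell barcode and a unique molecular identifier (UMI) that is counted once. The cells were chosen by a rule on measured transcripts, and 261 of 11660 barcodes met it, 43 of 1741 in the library of tdTomato-positive cells (Tom+) and 218 of 9919 in the library of tdTomato-negative cells (Tom-). A cell had at least 1000 UMIs and 500 detected genes and under 15% mitochondrial UMIs, and a barcode found in both libraries was kept where its copy was over 10 times deeper than the other. An endothelial cell had at least 5 UMIs per 10000 of Pecam1, Cdh5, Egfl7 and Cldn5 together with at least 2 of these 4 genes detected, and under 20 UMIs per 10000 of the fibroblast genes Col1a1, Col1a2, Col3a1 and Dcn. Capillary cells were those left after cells with at least 2 of the lymphatic genes Prox1, Mmrn1, Reln and Flt4, with at least 2 UMIs of the arterial genes Sema3g, Gja4 and Hey1, or with at least 2 UMIs of the venous genes Selp and Lrg1 were taken out. The name thus rests on genes that were absent. The markers Esm1, Flt1, Igfbp3, Pcdh17 and Scarb1 took no part in the rule, but were chosen with earlier results of these data known.

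Both libraries came from 1 male mouse of 25 months with the genotype p16-CreERT2/R26-LSL-tdTomato. Its Cre recombinase is driven by p16, a product of the Cdkn2a locus that blocks the cell cycle, and acts after tamoxifen to switch on the fluorescent protein tdTomato from the Rosa26 locus, so that the label is designed to mark cells with p16 activity around the time of injection. Whether it did so in capillary cells cannot be checked here, since Cdkn2a had no UMI in Tom+ capillary cells. Tamoxifen was injected into the peritoneum on 5 consecutive days, the bladder was taken 2 weeks later, and live cells without the leukocyte antigen CD45 were sorted into Tom+ and Tom- cells. Both groups share the animal, the genotype and the tamoxifen, and an animal without Cre or without tamoxifen was not analysed here. With 1 library per group there is no replicate check and no test between the groups was possible. Intervals are exact 95% intervals that cover counting error only, and differences are described by their size.

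Capillaries exchange oxygen, nutrients and hormones between blood and tissue, and their endothelium differs from that of arteries and veins in receptors for vascular endothelial growth factor (VEGF), in carriers for lipids and in the openings of its wall. Venules are the usual site where leukocytes leave the blood, and they carry adhesion molecules that capillaries have little of. Endothelial cells also secrete signals to their surroundings, among them the chemokine Cxcl12, which the series names in its title as a product of senescent fibroblasts.

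Capillary cells made up 26.9% of the blood endothelial cells in the Tom+ library (43 of 160, Clopper-Pearson interval 20.2% to 34.4%) and 36.9% in the Tom- library (218 of 591, 33.0% to 40.9%). Of all cells they made up 2.47% in Tom+ and 2.20% in Tom-. Arterial cells were 4 of 160 in Tom+ and 140 of 591 in Tom-, and venous cells were 112 of 160 in Tom+ and 218 of 591 in Tom-. These shares depend on the sort and on the fibroblast limit, which took out 2 endothelial cells in Tom+ and 192 in Tom-. Capillary cells held 359339 UMIs in Tom+, with a median of 5521 per cell, and 1612867 UMIs in Tom-, with a median of 5074. Near the limits, 11 Tom+ and 44 Tom- capillary cells had 1 arterial UMI, while 1 and 38 blood endothelial cells with exactly 2 lay outside. Likewise 6 Tom+ and 36 Tom- capillary cells had 1 venous UMI, while 16 and 26 blood endothelial cells with exactly 2 lay outside. Between 15 and 20 fibroblast UMIs per 10000 occurred in 1 Tom+ and 39 Tom- capillary cells, and between 20 and 25 in 0 and 38 endothelial cells that lay outside.

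Part of the barcodes that met the rule also carried transcripts of another cell class. With at least 20 UMIs per 10000 of a urothelial, mural, mesothelial or lymphatic marker list, or at least 1000 of haemoglobin, these were 8 of 43 in Tom+ and 19 of 218 in Tom-, and they are called other-class barcodes here. In Tom+ they were 5 with urothelial and 3 with lymphatic transcripts, and in Tom- 13 with urothelial, 5 with mural and 2 with haemoglobin transcripts, 1 barcode meeting more than 1 limit. They were deep, with a median of 20234 UMIs in Tom+ and 24951 in Tom-, and so held 46.2% of the capillary UMIs in Tom+ and 28.9% in Tom-. Scrublet, which simulates doublets, called 0 of the 43 Tom+ and 10 of the 218 Tom- capillary cells, all 10 of them other-class barcodes. It called 0.517% of all Tom+ cells, too few for the caller to count as having worked there. Of 966 barcodes shared by the libraries, 4 remained among the Tom+ capillary cells, all 4 of them other-class barcodes, and 0 among the Tom- ones. Comparisons below are therefore given without the other-class barcodes, on 35 Tom+ and 199 Tom- cells with 193341 and 1147001 UMIs, with the value over all 261 cells beside those that differ. This limit was set after the data had been seen.

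Sums of marker lists without the other-class barcodes follow, and the choice of cells fixed them in part. The pan-endothelial and fibroblast lists each hold 4 genes of the rule, and Prox1 is a rule gene. The limit for other-class barcodes used the urothelial, mural, lymphatic and haemoglobin lists. The sums of these lists are therefore no independent check of identity. The 10 pan-endothelial genes summed to 7293 CPM, UMIs of a gene scaled to a total of 1000000, in Tom+, against 7096 CPM in Tom-. The 8 urothelial genes summed to 67.2 and 209 CPM, the 9 mural genes to 103 and 155 CPM, with Pdgfrb, Notch3, Kcnj8, Cspg4 and Myh11 at 0 in Tom+, and the 7 lymphatic genes to 51.7 and 81.1 CPM, with Prox1 at 0 in Tom+. All 6 leukocyte genes were at 0 in Tom+, where a count of 0 allows up to 15.5 CPM, and they summed to 2.62 CPM in Tom-. Arterial and venous genes were not absent. The 10 venous genes summed to 1179 CPM in Tom+ and 992 CPM in Tom-, against 2671 and 2742 CPM over all venous cells. The 11 arterial genes summed to 600 CPM in Tom+ and 735 CPM in Tom-, against 2314 CPM over all Tom- arterial cells. Transcripts of fibroblasts and red cells differed between the libraries. The 6 fibroblast genes summed to 238 CPM in Tom+, against 902 CPM in Tom-, and the 4 haemoglobin genes to 82.8 CPM in Tom+, against 874 CPM in Tom-. The median capillary cell had 1.81 UMIs per 10000 of the rule's fibroblast genes in Tom+ and 8.63 in Tom-. The part of these transcripts in the differences between the libraries was not tested, beyond the values with fewer than 10 fibroblast UMIs per 10000 that are named below.

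The 5 markers separated capillary cells from venous and lymphatic cells, but Esm1, Flt1 and Igfbp3 hardly separated them from arterial cells. Flt1, a VEGF receptor that binds the ligand without strong signalling, was at 1945 and 1833 CPM in Tom+ and Tom- capillary cells, against 782 and 741 CPM in venous and 136 and 126 CPM in lymphatic cells. Scarb1, a receptor for high-density lipoprotein, was at 1381 and 1432 CPM in Tom+ and Tom- capillary cells, against 643 and 535 CPM in venous cells. Igfbp3, a secreted carrier of insulin-like growth factors, was at 926 and 1104 CPM in capillary cells and at 123 and 39.6 CPM in venous cells. Pcdh17, a protocadherin of the cell surface, was at 688 and 622 CPM in capillary cells and at 216 and 179 CPM in venous cells. Esm1, a secreted proteoglycan that VEGF induces in endothelium, was at 207 and 393 CPM in capillary cells, at 17.8 and 19.2 CPM in venous cells and at 0 in lymphatic cells. Capillary over venous ratios were thus 2.49 and 2.47 for Flt1, 2.15 and 2.68 for Scarb1, 3.18 and 3.48 for Pcdh17, 7.51 and 27.9 for Igfbp3 and 11.6 and 20.4 for Esm1 in Tom+ and Tom-.

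Arterial cells in Tom+ were 4, so the arterial comparison rests on Tom-. There the capillary over arterial ratio was 1.01 for Esm1 (0.884 to 1.16), 1.03 for Igfbp3 (0.949 to 1.12) and 1.19 for Flt1 (1.11 to 1.27), but 2.37 for Pcdh17 (2.06 to 2.73) and 1.84 for Scarb1 (1.69 to 2.01). The 5 markers went with the label of capillary cells against veins and lymphatics. This is no independent check, since the markers were chosen with earlier results of these data known. Of the 5, Pcdh17 and Scarb1 were more than 1.5 times higher than in Tom- arterial cells. All 5 markers were detected in 9 Tom+ and 68 Tom- of the 261 cells, and none of them in 1 Tom+ and 1 Tom- cell. The shares of cells that follow are over all members, other-class barcodes included, unless named. Each cell was thinned to 2000 UMIs (3 Tom+ and 16 Tom- cells were too shallow). A Flt1 UMI was then seen in 87.5% of Tom+ and 88.6% of Tom- capillary cells, or 93.9% and 91.35% without the other-class barcodes. In lymphatic cells it was seen in 8.14% and 9.95%. In venous cells it was seen in 74.1% and 73.5%. A Scarb1 UMI was seen in 62.5% and 81.7% of capillary and 52.8% and 52.6% of venous cells, a Pcdh17 UMI in 37.5% and 54.0% against 20.4% and 19.5%, and an Igfbp3 UMI in 45.0% and 50.5% against 5.56% and 4.65%. An Esm1 UMI was seen in 17.5% of Tom+ cells (7.34% to 32.8%) and 27.7% of Tom- cells (21.7% to 34.4%), against 23.3% and 37.6% before thinning. Without the other-class barcodes the thinned Esm1 shares were 18.2% and 29.7%. Among thinned venous cells an Esm1 UMI was seen in 1.85% and 1.40%. It was seen in 0 of 86 and 0 of 201 thinned lymphatic cells, with upper bounds of 4.2% and 1.82%.

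**Figure D1:**
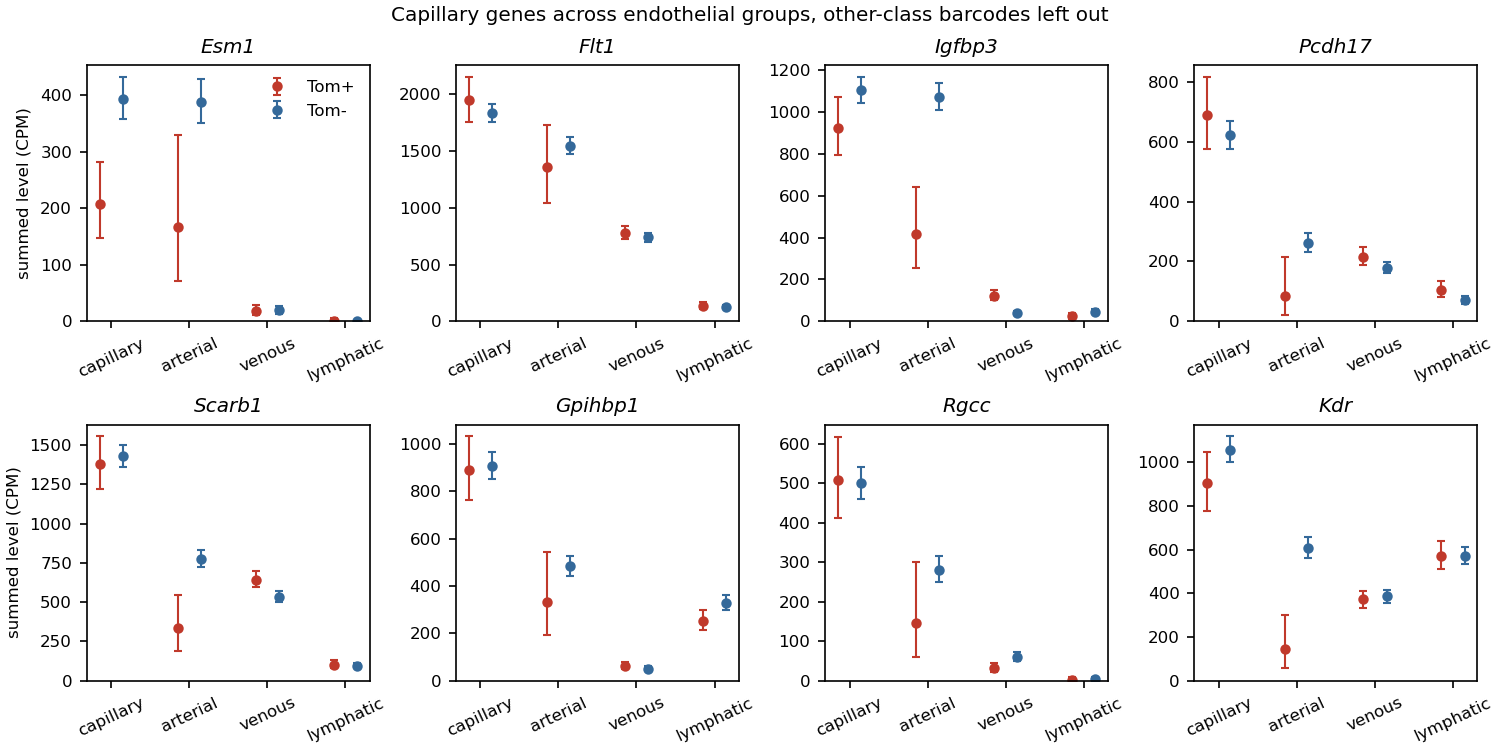
Summed level in CPM of 8 capillary genes in capillary, arterial, venous and lymphatic endothelial cells of the Tom+ (red) and Tom- (blue) library, without other-class barcodes, with bars for the exact Poisson 95% interval. Esm1 and Igfbp3 stand as high in Tom- arterial as in Tom- capillary cells, whereas Pcdh17, Scarb1, Gpihbp1, Rgcc and Kdr stand highest in capillary cells, and Tom+ arterial values rest on 4 cells.

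The marker genes lie on several chromosomes of the mouse genome GRCm38, with gene bounds from GENCODE. All are protein-coding: Esm1 at chr13:113209659-113218098 on the plus strand, Flt1 at chr5:147561604-147726011 on the minus strand, Igfbp3 at chr11:7206086-7213923 on the minus strand, Pcdh17 at chr14:84443563-84539002 on the plus strand and Scarb1 at chr5:125277087-125341094 on the minus strand. Many endothelial genes are controlled by transcription factors of the ETS family, which bind sites with the core GGAA. The RefSeq promoter windows of GRCm38.p6, from 250 bases before to 50 bases after the annotated start, are shown for Flt1, which nearly every capillary cell held, and for Esm1 and Igfbp3, which a subset of the cells held together. Each is given 5′ to 3′ on the gene's strand, with the core in capitals, as GGAA on that strand or TTCC where it lies on the other.
Flt1, chr5:147725962-147726261, minus strand: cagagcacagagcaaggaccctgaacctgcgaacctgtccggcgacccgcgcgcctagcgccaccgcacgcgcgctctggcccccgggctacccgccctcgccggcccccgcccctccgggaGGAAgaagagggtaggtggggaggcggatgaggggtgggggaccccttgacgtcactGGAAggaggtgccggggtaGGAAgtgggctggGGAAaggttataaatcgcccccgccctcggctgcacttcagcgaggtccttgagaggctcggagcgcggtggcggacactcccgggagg
Esm1, chr13:113209409-113209708, plus strand: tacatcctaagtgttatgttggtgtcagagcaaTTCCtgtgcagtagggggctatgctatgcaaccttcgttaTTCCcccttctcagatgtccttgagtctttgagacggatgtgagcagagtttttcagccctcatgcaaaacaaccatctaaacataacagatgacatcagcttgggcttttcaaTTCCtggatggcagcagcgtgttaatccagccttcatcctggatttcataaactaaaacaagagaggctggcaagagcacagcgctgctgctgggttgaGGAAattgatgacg
Igfbp3, chr11:7213874-7214173, minus strand: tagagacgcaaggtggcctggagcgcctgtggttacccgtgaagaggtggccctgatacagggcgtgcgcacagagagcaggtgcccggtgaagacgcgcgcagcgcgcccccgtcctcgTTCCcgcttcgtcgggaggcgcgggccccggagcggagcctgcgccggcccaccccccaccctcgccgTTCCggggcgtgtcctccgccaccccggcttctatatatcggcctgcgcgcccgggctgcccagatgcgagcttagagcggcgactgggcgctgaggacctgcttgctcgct
The Flt1 window holds 4 matches on the gene's strand and 0 on the other, the Esm1 window 1 and 3, and the Igfbp3 window 0 and 2. The Pcdh17 window holds 0 on either strand. These letters are common, since 31532 of 32851 promoter windows of that length (96.0%) hold at least 1 match and the median window holds 3. A match is no evidence of a bound site, and none of these data bear on binding.

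Other genes set capillary cells apart from the arterial and venous cells, named by a fixed rule on size in both libraries. Among the genes higher in capillary cells were Gpihbp1, which anchors lipoprotein lipase on the capillary wall, Rgcc, a regulator of the cell cycle and of the endothelial response to VEGF, the transcription factor Prdm1, the protease inhibitor Timp4, the extracellular matrix protein Itih5, the junction protein Jam3, the receptor Cd300lg and the interferon-induced Rsad2. Gpihbp1 was at 890 and 909 CPM in Tom+ and Tom- capillary cells, and at 62.7 and 49.5 CPM in venous cells, a ratio of 14.2 (10.5 to 19.4) and 18.4 (14.8 to 23.03). Rgcc was at 507 and 500 CPM in capillary cells and at 31.4 and 60.5 CPM in venous cells. Over Tom- arterial cells the ratios were lower, 1.88 for Gpihbp1 (1.69 to 2.09), 1.78 for Rgcc (1.54 to 2.06), 2.50 for Prdm1 (1.83 to 3.46), 2.91 for Itih5 (2.26 to 3.79) and 1.65 for Rsad2 (1.47 to 1.86). The VEGF receptor Kdr was at 905 and 1059 CPM in capillary cells, against 608 CPM in Tom- arterial and 372 and 386 CPM in venous cells. Car4, a carbonic anhydrase on the capillary surface, was at 124 and 56.7 CPM in capillary cells, against 6.67 CPM in Tom- arterial and 7.32 and 3.30 CPM in venous cells. It was also at 37.5 and 56.8 CPM in lymphatic cells. Not all of the 13 genes of a wider capillary list went this way, as shares of thinned Tom+ and Tom- cells over all members show. Meox2 was seen in 7.5% and 8.91% of capillary and 10.2% and 15.35% of venous cells. In Tom-, Btnl9 was seen in 2.475% of capillary and 10% of arterial cells, and Fabp4 in 29.2% and 39.3%. In lymphatic cells Kdr was seen in 65.1% and 67.7%, and Gpihbp1 in 26.7% and 40.8%.

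The 15 genes lower in capillary cells were Ackr1, Cytl1, Ptn, Vcam1, Pgm5, Ccdc3, Fgl2, Fbln5, Icam1, Adgrg6, Gem, Slco2a1, Stmn2, Clu and Lbp. Ackr1, an atypical chemokine receptor of venules, was at 0 and 3.49 CPM in Tom+ and Tom- capillary cells, against 180 and 203 CPM in venous cells. The adhesion molecule Vcam1 was at 0 and 25.3 CPM in capillary cells, against 202 CPM in Tom- arterial and 123 and 215 CPM in venous cells. Icam1, another ligand for leukocyte integrins, was at 15.5 and 15.7 CPM in capillary cells, against 84.7 and 125 CPM in venous cells. Clu, Stmn2, Fbln5 and Cytl1 were led by the arterial cells, Clu for instance with 1058 CPM in Tom- arterial cells against 139 CPM in Tom- capillary cells. The venous transcription factor Nr2f2 was at 103 and 83.7 CPM in capillary cells and at 359 and 334 CPM in venous cells. Plvap, the protein of the diaphragm across endothelial openings, was nearly as high in veins, at 1138 and 1100 CPM in capillary cells and 978 and 857 CPM in venous cells, and lower in Tom- arterial cells at 474 CPM.

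In Tom-, few capillary cells held both Esm1 and the fatty acid genes Cd36 and Fabp4, a pattern chosen after their values had been seen. It was not seen in Tom+. Cd36 takes up long-chain fatty acids, and Fabp4 carries them inside the cell. At least 2 Esm1 UMIs were present in 7 of 35 cells in Tom+ and 52 of 199 in Tom-, and at least 2 Cd36 UMIs in 11 Tom+ and 57 Tom- cells. Both were present in 2 of the 7 Tom+ cells with Esm1, about the share of Cd36 among all 35, and in 1 of the 52 Tom- cells with Esm1. Fabp4 went with Cd36, since 11 Tom+ and 54 Tom- cells had at least 2 UMIs of each. Igfbp3 went with Esm1, since 7 Tom+ and 47 Tom- cells had at least 2 UMIs of each. The remaining cells were numerous, with fewer than 2 UMIs of both Esm1 and Cd36 in 19 Tom+ and 91 Tom- cells. Among single cells the highest Fabp4 value was 510 UMIs per 10000 in Tom+ and 860 in Tom-, while the median cell had 0 in both.

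**Figure D2:**
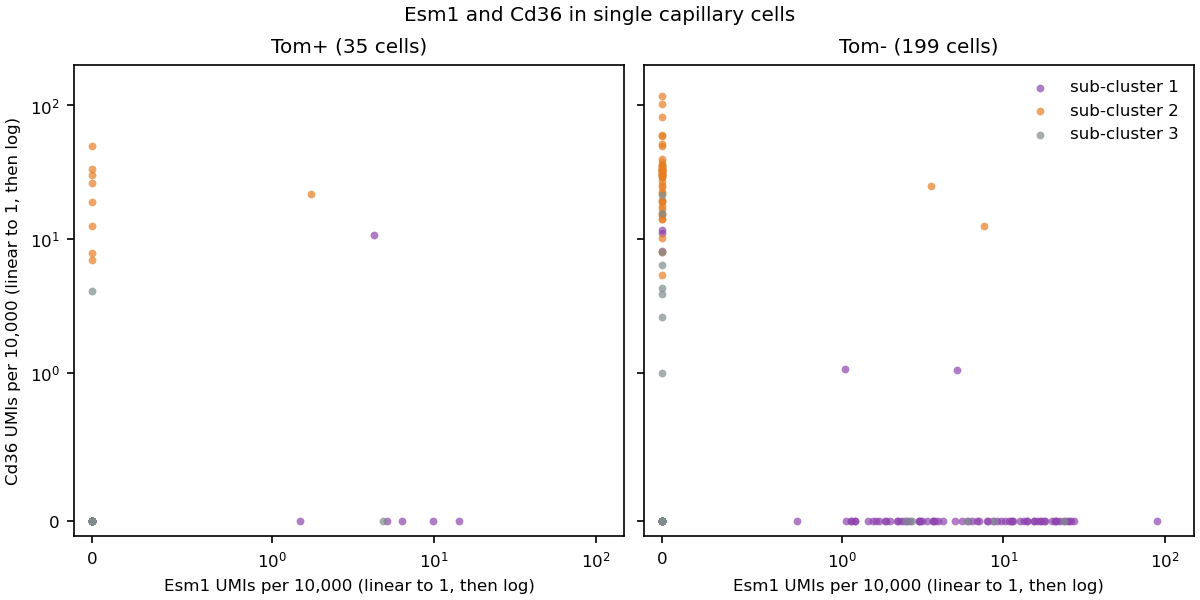
Esm1 (x axis) and Cd36 (y axis) UMIs per 10000 in each capillary cell, on axes that are linear to 1 and logarithmic above, for 35 Tom+ cells (left) and 199 Tom- cells (right) without other-class barcodes, coloured by sub-cluster. Most Tom- cells lie on 1 of the axes, with at least 2 UMIs of each gene in 1 Tom- cell, and the same held for 2 of the 7 Tom+ cells with Esm1.

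Clustering of all 261 cells without tdTomato and the genes of the rule gave 4 sub-clusters, which describe the same genes and are no evidence for the pattern. Sub-cluster 1 (17 Tom+ and 108 Tom- cells) was led by Esm1, Chst2, Slco1a4 and Igfbp3, with Plvap at 1438 CPM and Cd36 at 32.7 CPM. Sub-cluster 2 (9 and 54 cells) was led by Car4, Cd36, Fabp4 and Lpl, with Cd36 at 2853 CPM, Plvap at 315 CPM and Cxcl12 at 3073 CPM. Sub-cluster 3 (12 and 46 cells) was led by haemoglobin genes, Slco2a1, Mgp and Clu, of which Slco2a1 was higher in venous and Clu in arterial than in capillary cells. The 2 other-class Tom- barcodes with 7613 and 7699 haemoglobin UMIs per 10000 are far above every other capillary cell, of which the highest had 76.3. All 15 cells of sub-cluster 4 were other-class barcodes with urothelial transcripts, at a median of 37283 UMIs. Sub-cluster 1 thus held the cells with more of the diaphragm protein Plvap, and sub-cluster 2 those with the genes of lipid uptake, among them Gpihbp1 at 1615 CPM against 891 CPM in sub-cluster 1.

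The sorted reporter followed the labels. tdTomato was at 1593 CPM in Tom+ capillary cells (308 UMIs), against 95.03 CPM in Tom- capillary cells (109 UMIs), a ratio of 16.8 (13.4 to 21.1), and over all 261 cells at 1430 and 80.6 CPM, a ratio of 17.8 (14.6 to 21.7). At least 1 tdTomato UMI was seen in 34 of 35 Tom+ cells, against 68 of 199 Tom- cells. Thinned to 2000 UMIs, these shares were 93.9% of Tom+ and 12.4% of Tom- cells. The median Tom+ cell had 14.5 tdTomato UMIs per 10000, while the highest Tom- cell had 8.75. Tom+ capillary cells had less tdTomato than Tom+ venous cells, at 2351 CPM, a capillary over venous ratio of 0.678 (0.600 to 0.764). Gt(ROSA)26Sor, the non-coding transcript of the locus that holds the reporter, was at 51.7 CPM in Tom+, against 20.05 CPM in Tom-, on 10 and 23 UMIs.

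Cdkn2a itself was not detectable at this depth. It had 0 UMIs in all 43 Tom+ capillary cells, which allows up to 8.35 CPM, and 1 UMI in the 218 Tom- cells. Cdkn1a, which encodes the cell-cycle inhibitor p21 and is a target of p53, was higher in Tom+, at 222 CPM in Tom+, against 124 CPM in Tom-, which is a ratio of 1.80 (1.25 to 2.54), on 43 and 142 UMIs. UMIs of it were present in 13 of 35 cells in Tom+ and 66 of 199 in Tom-, or 37.1% and 33.2%, and after thinning in 27.3% and 22.7%. Over all 261 cells the ratio was 2.57 (2.02 to 3.25), and 1 Tom+ barcode with lymphatic transcripts held 38 of the 114 Tom+ UMIs. Cdkn1a was 2.11 times higher in Tom+ in the Cd36 cells of sub-cluster 2 (1.27 to 3.43), at 534 and 253 CPM. This rested on 26 UMIs in 9 Tom+ cells, with 9 UMIs in 1 cell. In sub-cluster 1 it was at 113 and 102 CPM, a ratio of 1.10 (0.545 to 2.05). In sub-cluster 3 the ratio was 1.87 (0.537 to 5.35), on 5 Tom+ UMIs. The log2 ratio over all members was 1.36, and 0.52 over those with at least 2 capillary markers. In venous cells Cdkn1a was lower in Tom+, at 96.2 CPM in Tom+, against 145 CPM in Tom-, which is a ratio of 0.662 (0.517 to 0.843), and the difference between the capillary and the venous ratio was not tested.

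**Figure D3:**
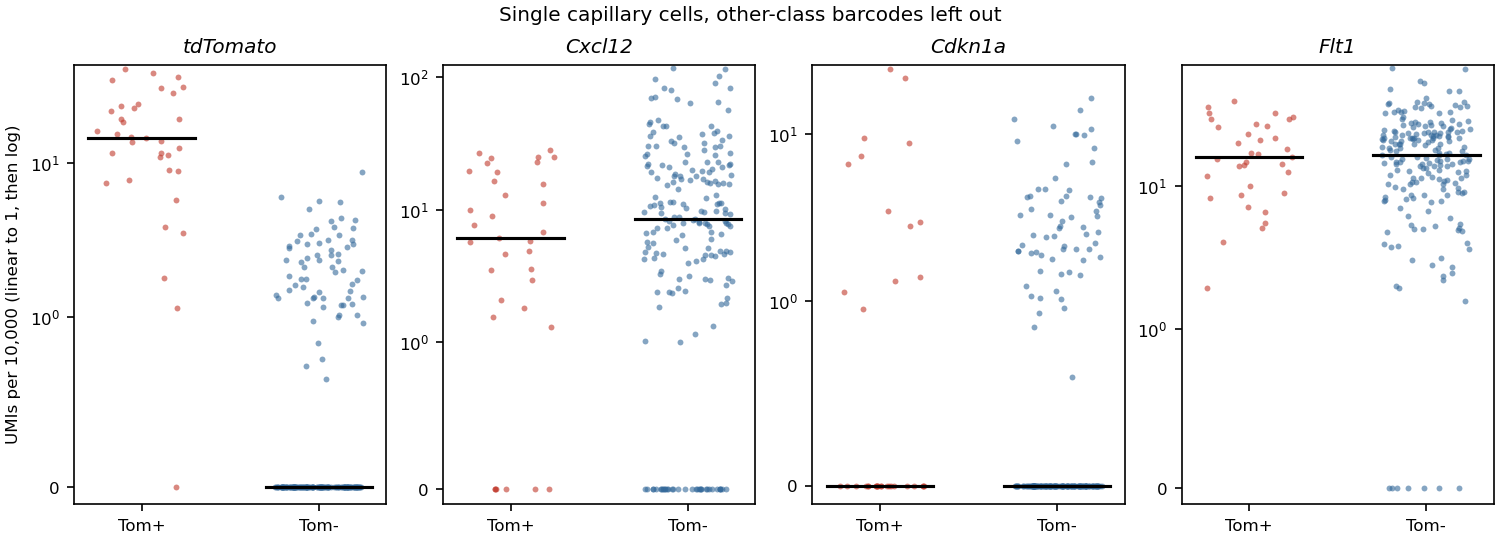
UMIs per 10000 of tdTomato, Cxcl12, Cdkn1a and Flt1 in single capillary cells without other-class barcodes (35 Tom+, left in each panel, and 199 Tom-), on an axis that is linear to 1 and logarithmic above, with the median as a line. tdTomato separates the libraries, with medians of 14.5 and 0, whereas Cxcl12, Cdkn1a and Flt1 overlap over most of their range.

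Cxcl12, the chemokine that recruits cells through the receptor Cxcr4, was high in capillary cells and lower in Tom+ than in Tom-. It was at 1143 CPM in Tom+, against 1503 CPM in Tom-, which is a ratio of 0.761 (0.658 to 0.875), on 221 and 1724 UMIs. The Tom- level was 638% of that in the Tom- cells gated as fibroblasts. Over all 261 cells the levels were 704 CPM in Tom+, against 1192 CPM in Tom-, which is a ratio of 0.590 (0.516 to 0.674), or -0.76 on the log2 scale with 1 CPM added. The share of cells with a Cxcl12 UMI was close, at 72.7% in Tom+ and 73.0% in Tom- after thinning and 82.9% in each before. In thinned lymphatic cells, other-class barcodes included, it was 22.1% and 17.4%. In single cells the median was 6.09 UMIs per 10000 in Tom+ and 8.54 in Tom-, and the highest value was 28.4 in Tom+ and 117 in Tom-. Within sub-clusters the ratio was 0.926 in sub-cluster 1 (0.753 to 1.13), 0.554 in sub-cluster 2 (0.442 to 0.686) and 0.491 in sub-cluster 3 (0.263 to 0.847). Among cells with fewer than 10 fibroblast UMIs per 10000, 33 Tom+ and 117 Tom-, the log2 ratio was -0.17. Over the 261 cells it was -0.20 without the 4 barcodes shared by the libraries and -1.07 without those called by Scrublet. For both receptors the interval of the ratio held 1, so no direction is given. Cxcr4 was at 77.6 and 59.3 CPM, a ratio of 1.31 (0.695 to 2.31), on 15 and 68 UMIs. Ackr3, which scavenges Cxcl12, was at 186 and 153 CPM, a ratio of 1.21 (0.823 to 1.75). Capillary cells held 6.40 times the Cxcl12 of venous cells in Tom+ and 5.83 times in Tom-, and Tom- capillary and arterial cells had the same level within counting error, a ratio of 1.01 (0.942 to 1.08).

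Of the 5 markers, Esm1 was lower in Tom+, Igfbp3 was lower by less, and Flt1, Pcdh17 and Scarb1 were close. Esm1 was at 207 CPM in Tom+, against 393 CPM in Tom-, which is a ratio of 0.526 (0.371 to 0.728), found in 8 of 35 and 76 of 199 cells, and 1 Tom+ cell held 15 of the 40 Tom+ UMIs. Its log2 ratio over all members was -0.83, and -0.10 over those with no arterial or venous UMI. The ratio was 1.06 for Flt1 (0.948 to 1.18), 1.11 for Pcdh17 (0.913 to 1.33), 0.965 for Scarb1 (0.844 to 1.10) and 0.839 for Igfbp3 (0.713 to 0.982). Over all 261 cells these were 0.860 for Flt1, 0.923 for Pcdh17, 0.750 for Scarb1 and 0.666 for Igfbp3. Igfbp3 was higher in Tom+ in venous cells, at 123 and 39.6 CPM, a ratio of 3.12 (2.30 to 4.24). Plvap had a ratio of 1.03 (0.892 to 1.19) and Cd36 one of 0.941 (0.765 to 1.15). Gpihbp1 had a ratio of 0.979 (0.829 to 1.15) over the cells together, but 0.491 in sub-cluster 1 (0.360 to 0.657) and 1.51 in sub-cluster 2 (1.22 to 1.87), and 1 Tom+ cell held 45 of its 172 Tom+ UMIs. Rgcc likewise had 1.01 (0.810 to 1.26) over the cells together, 0.640 in sub-cluster 1 (0.430 to 0.921) and 1.38 in sub-cluster 2 (1.02 to 1.84). After thinning, a Gpihbp1 UMI was present in 45.5% of cells in Tom+ and 66.5% in Tom-, and an Rgcc UMI in 39.4% and 56.8%.

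Over all 261 cells, 8802 genes were measured, a gene counting as such from 10 CPM in either library and 20 UMIs over both. At least 1.5 times higher in Tom+ were 957 (10.9%) and lower 1314 (14.9%), with 1 CPM added to each level, and the median log2 ratio was -0.03. Without the other-class barcodes, 7554 genes were measured, 853 (11.3%) higher and 1483 (19.6%) lower, at a median log2 ratio of -0.04. These shares are the background against which counts of genes are read below.

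Of the genes highest in Tom+ over all 261 cells, several had nearly all their Tom+ UMIs in the other-class barcodes. The 15 highest by the fixed rule were Cyp2f2, Vegfa, Krt4, Rgs16, Mipol1, Anxa1, Slc4a7, Cmbl, Alcam, Map4k5, Tsku, Cbr2, Aldh3a1, Pole3 and Cdkn1a, and 6 of them were still measured and at least 1.5 times higher without the other-class barcodes. Krt4, a keratin, had 54 UMIs in Tom+ over all cells and 0 without those barcodes, and Cbr2, a carbonyl reductase, had 94 and then 0. Cyp2f2, a cytochrome P450, had 62 and then 2, and Aldh3a1, an aldehyde dehydrogenase, 129 and then 1. Anxa1 had 87 UMIs in Tom+ over all cells, 57 of them in the 3 barcodes with lymphatic transcripts, and its ratio was 3.03 (2.28 to 4.00) with and 0.462 (0.165 to 1.05) without the other-class barcodes. Vegfa, the ligand of Flt1 and Kdr, had 26 UMIs in Tom+, of which 5 were left, against 7 in Tom-. Rgs16, which shortens signalling by G proteins, stayed higher on few counts, at 67.2 CPM in Tom+, against 19.2 CPM in Tom-, which is a ratio of 3.51 (1.62 to 7.27) on 13 and 22 UMIs in 4 and 16 cells. Slc4a7, a bicarbonate transporter, had a ratio of 2.85 (1.30 to 5.88) on 12 and 25 UMIs, and Map4k5, a kinase, 2.14 (1.04 to 4.14) on 13 and 36.

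Of the genes lowest in Tom+ over all 261 cells, most stayed lower. The 15 lowest were Bgn, Clu, Bpgm, Mgp, Ctgf, Vamp2, Card19, Fbxo3, Smpdl3a, Tgfb2, Rnf6, Slc39a10, Pik3r3, Strn4 and Mllt6, and 14 of them stayed at least 1.5 times lower without the other-class barcodes. The exception was Bpgm, an enzyme of red cells, at 20.7 CPM in Tom+, against 15.7 CPM in Tom-. Ctgf, a secreted matrix protein that responds to mechanical tension and transforming growth factor beta (TGF-beta), was at 129 CPM in Tom+, against 347 CPM in Tom-, which is a ratio of 0.373 (0.238 to 0.558), with UMIs in 9 of 35 and 82 of 199 cells. Its Tom- level was 425% of that in Tom- fibroblasts. Mgp, an inhibitor of calcification, was at 315 and 759 CPM, a ratio of 0.415 (0.315 to 0.539), and Bgn, a proteoglycan of the matrix, had 1 UMI in Tom+ and 83 in Tom-, 24 of them in 1 cell. Mgp and Bgn are abundant in fibroblasts, their Tom- levels being 18.0% and 9.23% of those in Tom- fibroblasts. With fewer than 10 fibroblast UMIs per 10000 the log2 ratios were -1.28 for Mgp, -3.56 for Bgn and -1.52 for Ctgf. Clu, a secreted chaperone, was at 31.0 and 139 CPM, a ratio of 0.224 (0.0809 to 0.498), and Tgfb2, a TGF-beta ligand, at 51.7 and 92.4 CPM, a ratio of 0.560 (0.261 to 1.07).

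**Figure D4:**
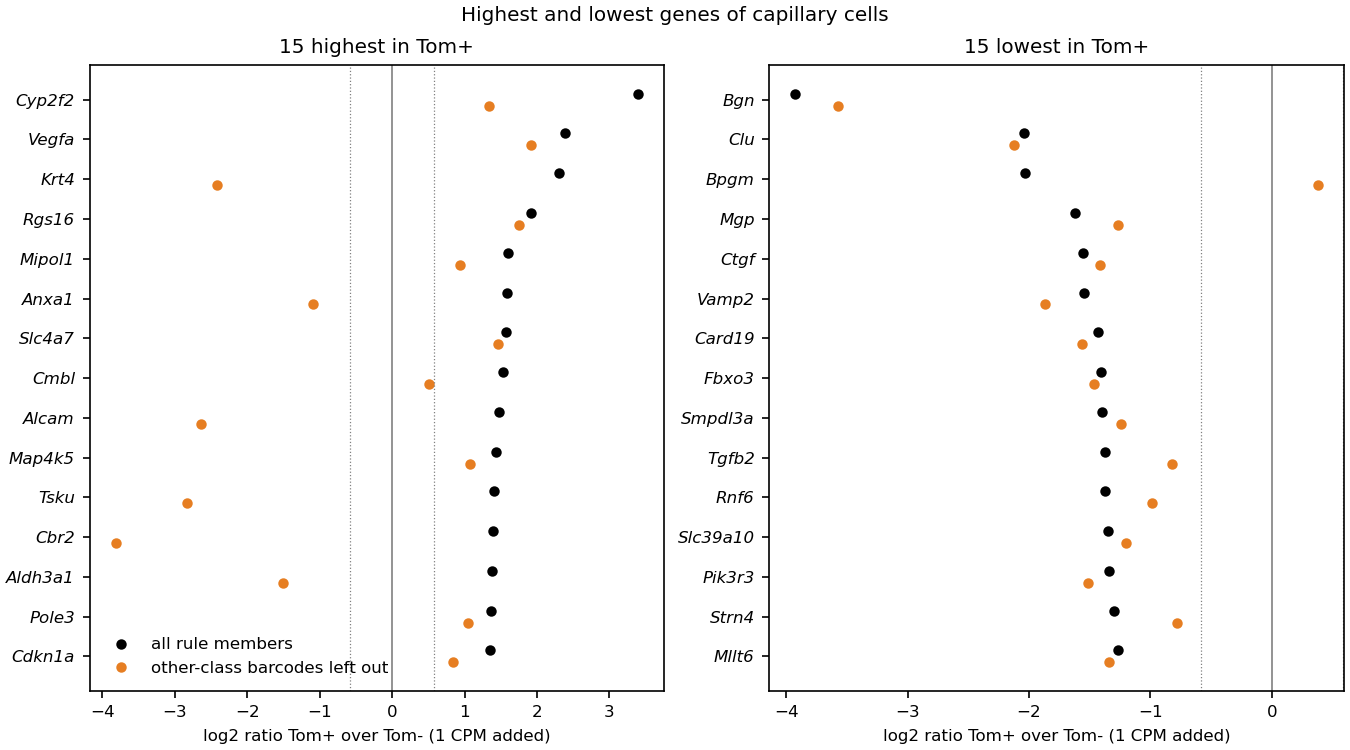
Log2 ratio of Tom+ over Tom-, with 1 CPM added, of the 15 highest (left) and 15 lowest (right) genes of the 261 capillary cells, over all cells (black) and without other-class barcodes (orange), with dotted lines at 1.5 times. Without these barcodes 6 of the 15 highest and 14 of the 15 lowest are still measured and past 1.5 times in the same direction, the points of Cyp2f2 and Vegfa resting on 2 and 5 Tom+ UMIs.

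Gene lists by function follow, each with the number of measured genes at least 1.5 times higher and lower in Tom+ without the other-class barcodes, to be read against 11.3% higher and 19.6% lower over all genes and a median log2 ratio of -0.04. The lists and the threshold were chosen with results of these data known, and no list was tested. Members are counted and not called changed.

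Among secreted proteins linked to senescence, 0 of 28 measured genes were higher and 15 lower, at a median log2 ratio of -0.61, and over all 261 cells 3 of 32 were higher and 18 lower, the median being -0.70. Besides Ctgf and Tgfb2, the lower members included Igfbp4, a carrier of insulin-like growth factors, at 98.3 CPM in Tom+, against 201 CPM in Tom-, which is a ratio of 0.488 (0.288 to 0.779), and Edn1, the vasoconstrictor endothelin, at 103 and 156 CPM, a ratio of 0.663 (0.395 to 1.05). Thinned to 2000 UMIs, the log2 ratio of Edn1 over all members was 0.079. Several were at or near 0 in Tom+: Plat, the tissue plasminogen activator, had 0 and 38 UMIs, Fn1, fibronectin, 0 and 42, and Igfbp2 1 and 47. The Tom- level was 5.80% of that in Tom- fibroblasts for Fn1 and 43.9% for Igfbp4, against 425% for Ctgf. The Tom- level of Igfbp2 was 2.05% of that in Tom- urothelial cells, which at under 5% is in the range of free RNA. Members in that range were kept in the counts. Igfbp5, Igfbp6 and Mmp2 were also among the lower members. Fibroblast transcripts were more abundant in the Tom- library, and their part in the lower members of this list was not tested. Igfbp7, another carrier of these factors, was at 5679 and 5806 CPM, a ratio of 0.978 (0.917 to 1.04). In the overlapping list of insulin-like growth factor binding proteins and receptors, 1 of 10 was higher and 4 lower, the median being -0.28, and the receptor gene Insr was at 326 and 275 CPM, a ratio of 1.19 (0.891 to 1.56). The higher member was the growth factor Igf1, with 10 and 23 UMIs, a ratio of 2.58 (1.10 to 5.63), which turned when all members were thinned to 2000 UMIs, with 0% of Tom+ cells holding it and a log2 ratio of -4.38.

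Of 22 measured secreted signals of endothelium, 4 were higher and 9 lower, the median being -0.49. Kitl, the ligand of the receptor Kit, was at 631 and 624 CPM, a ratio of 1.01 (0.827 to 1.23). Apln, the peptide apelin made by growing endothelium, had 13 UMIs in 2 Tom+ cells and 14 in 7 Tom- cells, a ratio of 5.51 (2.38 to 12.6) that rests on 2 cells, and Bmp6, a bone morphogenetic protein, 3 and 42 UMIs, a ratio of 0.424 (0.0840 to 1.33). In the TGF-beta and bone morphogenetic protein pathway, 0 of 22 were higher and 5 lower, the median being -0.03. The pathway's target Id1 was at 259 and 412 CPM, a ratio of 0.627 (0.459 to 0.840), while its other target Id3 was at 559 and 559 CPM, a ratio of 0.9996 (0.808 to 1.23). The co-receptor Tgfbr3 was at 290 and 208 CPM, a ratio of 1.39 (1.02 to 1.87).

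In the VEGF, angiopoietin and apelin pathway, 1 of 21 genes was higher (Apln) and 1 lower (Esm1), with a median of -0.04. The receptor Kdr was at 905 and 1059 CPM, a ratio of 0.855 (0.725 to 1.002), with 0.625 in sub-cluster 1 (0.490 to 0.788) and 1.93 in sub-cluster 3 (1.31 to 2.79). The phosphatase Ptprb was at 1355 and 1300 CPM, a ratio of 1.04 (0.911 to 1.19), the receptor Tie1 at 367 and 284 CPM, a ratio of 1.29 (0.985 to 1.68), and the apelin receptor Aplnr at 181 and 126 CPM, a ratio of 1.44 (0.967 to 2.10). In the Notch pathway 2 of 17 were higher and 2 lower, the median being 0.11. The ligand Dll1 had 8 and 15 UMIs, a ratio of 3.16 (1.16 to 7.95), but a log2 ratio of -0.36 over all members with no arterial or venous UMI. The modifier of Notch Lfng had 16 and 40, a ratio of 2.37 (1.24 to 4.33), the target Hes1 was at 388 and 262 CPM, a ratio of 1.48 (1.14 to 1.92), and the ligand Dll4 at 166 and 175 CPM, a ratio of 0.945 (0.629 to 1.38). Of 35 endothelial transcription factors 2 were higher and 5 lower, the median being 0.01. Tal1 was the higher of those named, with 13 and 32 UMIs and a ratio of 2.41 (1.16 to 4.72), Erg had 4 and 53, a ratio of 0.448 (0.118 to 1.21), Hoxd8 9 and 112, a ratio of 0.477 (0.212 to 0.938), and Tcf15, with Meox2 a regulator of fatty acid transport, 40 and 189, a ratio of 1.26 (0.869 to 1.77).

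Of 13 measured genes of lipid uptake, 1 was higher and 2 lower, the median being -0.03, against 4 and 3 of 18 and 0.31 over all 261 cells. Fabp4 was at 4076 CPM in Tom+, against 2736 CPM in Tom-, which is a ratio of 1.49 (1.38 to 1.61), with UMIs in 11 of 35 and 63 of 199 cells, and 1 Tom+ cell held 185 of its 788 Tom+ UMIs. Fabp5 was at 166 and 111 CPM, a ratio of 1.495 (0.981 to 2.22). Lpl, lipoprotein lipase, was at 25.9 and 83.7 CPM, a ratio of 0.309 (0.0981 to 0.746), on 5 and 96 UMIs. Among genes of the diaphragm and caveolae, 0 of 12 were higher and 1 lower, the recycling protein Ehd1 with 3 and 64 UMIs, a ratio of 0.278 (0.0559 to 0.850), and the median was -0.06. Among solute carriers and exchange proteins, 2 of 18 were higher and 3 lower, the median being 0.14. Car4 was at 124 and 56.7 CPM, a ratio of 2.19 (1.31 to 3.55), but its log2 ratio over all members with no arterial or venous UMI was -0.34. The zinc transporter Slc39a10 was at 46.6 and 108 CPM, a ratio of 0.431 (0.192 to 0.844), Slco3a1 had 0 and 27 UMIs, and the water channel Aqp1 was at 2793 and 3150 CPM, a ratio of 0.887 (0.809 to 0.971). In glycolysis 1 of 15 was higher and 3 lower, the median being -0.33. Tpi1 had 6 and 105 UMIs, a ratio of 0.339 (0.122 to 0.763), and Gapdh was at 326 and 341 CPM, a ratio of 0.956 (0.721 to 1.25).

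Genes of vessel tone and shear stress had 5 of 23 higher and 6 lower, the median being 0.10. Npr3, which clears natriuretic peptides, was at 207 CPM in Tom+, against 95.03 CPM in Tom-, which is a ratio of 2.18 (1.48 to 3.15), with UMIs in 18 of 35 and 59 of 199 cells. Adm, the vasodilator adrenomedullin, had 13 and 26 UMIs, a ratio of 2.97 (1.40 to 5.98), in 3 and 10 cells, and Ptgs1, a cyclooxygenase, was at 197 and 121 CPM, a ratio of 1.62 (1.10 to 2.34). The bradykinin receptor Bdkrb2 was lower on 2 and 63 UMIs, a ratio of 0.188 (0.0223 to 0.709), and the flow-induced transcription factor Klf2 was at 967 and 833 CPM, a ratio of 1.16 (0.988 to 1.36). In coagulation and fibrinolysis 3 of 16 were higher and 3 lower, the median being 0.05. Adamts1, a protease, was at 129 and 59.3 CPM, a ratio of 2.18 (1.32 to 3.50), with 13 of its 25 Tom+ UMIs in 1 cell, and a log2 ratio of -0.82 over all members with no arterial or venous UMI. Vwf, von Willebrand factor, was at 703 and 630 CPM, a ratio of 1.12 (0.922 to 1.34). In the basement membrane 3 of 22 were higher and 2 lower, the median being 0.16. The laminin chain Lama4 was at 207 and 104 CPM, a ratio of 1.99 (1.36 to 2.87), and Sparcl1, a secreted matrix protein, at 2586 and 2091 CPM, a ratio of 1.24 (1.12 to 1.36). Of junction and glycocalyx genes 2 of 24 were higher and 4 lower, the median being -0.00063. The gap junction protein Gja1 was at 197 and 308 CPM, a ratio of 0.639 (0.444 to 0.894), and the surface sialomucin Emcn at 1122 and 1123 CPM, a ratio of 0.9995 (0.862 to 1.16).

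Genes of immune contact were mostly close between the libraries. In leukocyte adhesion and chemokines 0 of 12 were higher and 3 lower, the median being -0.29. Vcam1 had 0 and 29 UMIs, Ccl5 had 0 and 31, all 31 in 1 Tom- cell, and Cd200, a surface protein that restrains myeloid cells, was at 1433 and 1369 CPM, a ratio of 1.05 (0.918 to 1.19). In antigen presentation 1 of 17 was higher and 1 lower, the median being -0.0065. H2-K1 was at 2064 and 2264 CPM, a ratio of 0.911 (0.818 to 1.01), H2-D1 at 2157 and 2221 CPM, a ratio of 0.971 (0.874 to 1.08), and Cd74, the invariant chain, had 17 and 42 UMIs, a ratio of 2.40 (1.28 to 4.31), in 6 and 20 cells. Of 32 interferon-stimulated genes 4 were higher and 2 lower, the median being 0.09. Iigp1, an interferon-induced GTPase, was at 662 CPM in Tom+, against 329 CPM in Tom-, which is a ratio of 2.01 (1.63 to 2.47), with UMIs in 27 of 35 and 116 of 199 cells. Ifit1 was at 145 and 91.5 CPM, a ratio of 1.58 (1.004 to 2.42), Rsad2 at 802 and 691 CPM, a ratio of 1.16 (0.970 to 1.38), and Ifitm3 at 1924 and 2126 CPM, a ratio of 0.905 (0.809 to 1.01).

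In genes of cell-cycle arrest and senescence 3 of 17 were higher and 2 lower, the median being 0.30, the largest of the 23 lists. Cdkn1a was among the higher ones, Id1 among the lower, and Hmgb1, a chromatin protein that senescent cells can release, was at 1024 and 935 CPM, a ratio of 1.10 (0.937 to 1.28). Of 17 measured p53 targets, 2 were higher and 4 lower, the median being -0.23, against 6 and 1 of 20 and 0.07 over all 261 cells. Gadd45a, a protein of the DNA damage response, had 12 and 23 UMIs, a ratio of 3.095 (1.40 to 6.48), in 8 and 19 cells. Trp53inp1 had a ratio of 2.58 (1.54 to 4.23) over all cells and 0.802 (0.246 to 2.04) without the other-class barcodes, and 1 barcode with lymphatic transcripts held 18 of its 27 Tom+ UMIs. Few proliferation genes were measured, 6 of 20 listed, of which 2 were higher and 1 lower, the median being 0.22, and Tyms, an enzyme of nucleotide synthesis, had 10 and 34 UMIs, a ratio of 1.74 (0.769 to 3.61).

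Of 29 immediate-early and heat-shock genes, which respond to dissociation of tissue, 1 was higher and 4 lower, the median being -0.25. Fos was at 672 and 990 CPM, a ratio of 0.680 (0.562 to 0.815), and Jun at 1179 and 1490 CPM, a ratio of 0.791 (0.686 to 0.909), while over all 261 cells these ratios were 1.08 and 1.07. In oxidative stress 0 of 18 were higher and 6 lower, the median being -0.35, against 3 and 2 of 21 and 0.08 over all cells. The metallothionein Mt1 had 2 and 134 UMIs, 99 of them in 1 Tom- cell. The glutathione transferase Gstm1 had a ratio of 1.72 over all cells and of 0.554 (0.408 to 0.737) without the other-class barcodes. Gsta4, another of them, had 1.79 over all cells and 0.460 (0.205 to 0.904) without. Their Tom- levels without these barcodes were 2.48% for Gstm1 and 1.86% for Gsta4 of those in Tom- urothelial cells.

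**Figure D5:**
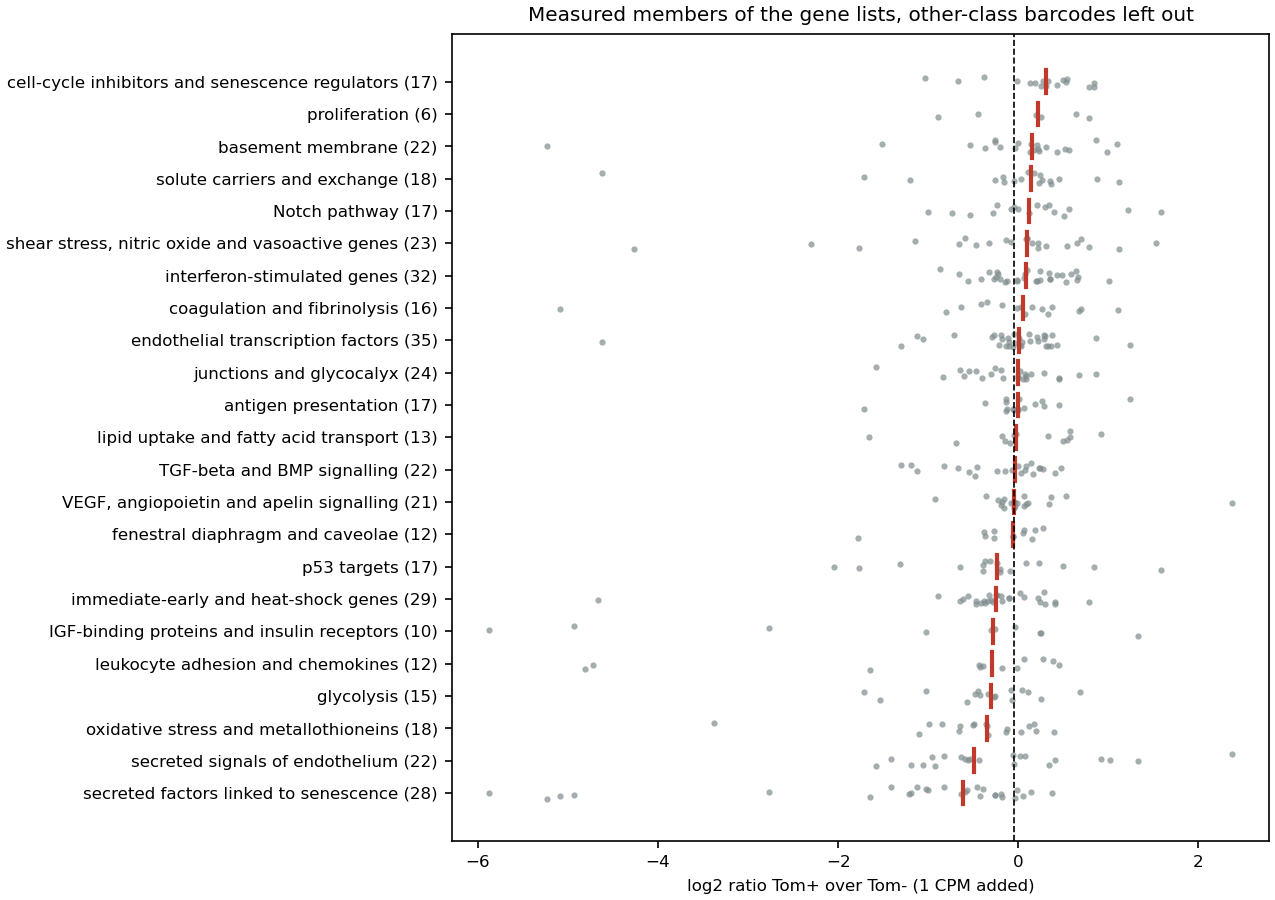
Log2 ratio of Tom+ over Tom- (1 CPM added) for each measured member of 23 gene lists (points), without other-class barcodes, with the list's median (red bar), the number of measured members in brackets and the median of all measured genes as a dashed line. The secreted factors linked to senescence lie lowest, with a median of -0.61, and cell-cycle inhibitors highest, with a median of 0.30. Members marked as possible free RNA are included.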

How the data were processed

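Single-cell RNA was measured in 2 libraries, Tom+ and Tom-, of 1 mouse, prepared with a droplet kit that captures 3' ends. The authors deposited 1 matrix of raw UMI counts per library. Cell Ranger 7.0.0 and the mouse build mm10 are named per the submitters' processing notes, while the matrices carry software version 3.0.2 per the file headers. Handling of doublets and of free RNA is not given in the sources used here. The matrices hold 2783 Tom+ and 13551 Tom- barcodes, of which 966 occur in both.

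The deposited counts were filtered and summed per library over the cells that met the rule given in the report. Sums were scaled to CPM, and log2 ratios had 1 CPM added. Poisson intervals for levels, Clopper-Pearson intervals for shares and conditional binomial intervals for ratios are exact at 95%. Limits for a count of 0 correspond to 3 counts. No model was fitted, because each group has 1 library. The ratio step was run on simulated Poisson sums. These have no spread between cells, so the run cannot show how the intervals hold where single cells carry many counts. Cells were thinned to 2000 UMIs for shares. Sub-clusters used the Leiden method (scanpy 1.11.5, leidenalg 0.10.2) at resolution 0.5, with 15 neighbours, 20 components and 2000 variable genes. TMM scaling used edgeR 4.0.16.

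Named genes were the 15 highest and 15 lowest ratios of genes reaching 50 CPM and detected in 10% of the cells of the library where they were higher. Between groups of endothelial cells they were the 15 highest and 15 lowest on the same side in both libraries. Genes named from the 23 lists were up to 3 highest, 3 lowest and the 2 with most counts. Genes at under 5% of their level in another cell class were marked as possible free RNA. Some of the list members and sub-cluster genes named were chosen after their values were seen. The members, the markers and the lists were chosen with earlier results of these data known. Alternatives are listed in the closing section.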

Additional observations from a re-analysis of the deposited data

Results flagged for a closer look

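Of 111 named genes followed through the alternatives below, 15 had Tom+ over Tom- ratios on opposite sides of 1 in capillary and venous cells. Both 95% counting intervals were clear of 1, with capillary cells taken with or without other-class barcodes. Many of the 111 were named for their size or after their values were seen, and 15 is no count over all measured genes. Egfl7, outside the 111, had 0.828 over all cells and 1.01 without other-class barcodes, against 1.15 in venous cells. The difference between the 2 ratios was not tested, since each group has 1 library. Venous values are without other-class barcodes.

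Higher in Tom+ capillary cells and lower in Tom+ venous cells were 5 genes. For Cdkn1a the capillary ratio was 2.57 over all cells and 1.80 without other-class barcodes, against 0.662 in venous cells (0.517 to 0.843). For Rgs16 it was 3.95 and 3.51, against 0.694 (0.491 to 0.966). For Dll1 it was 3.16 without other-class barcodes, on 8 Tom+ UMIs, against 0.662 (0.463 to 0.933), but its log2 ratio over all members with no arterial or venous UMI was -0.36. Gsta4 had 1.79 and Gstm1 1.72 over all cells, against 0.364 and 0.663 in venous cells, and both were below 1 in capillary cells without other-class barcodes.

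Lower in Tom+ capillary cells and higher in Tom+ venous cells were 10 genes. Igfbp3 had 0.666 over all cells and 0.839 without other-class barcodes, against 3.12 in venous cells (2.30 to 4.24). Bdkrb2 had 0.260 and 0.188, on 2 Tom+ UMIs without those barcodes, against 2.58 (1.23 to 5.56). Igfbp4 had 0.449 and 0.488, against 1.16 (1.03 to 1.30), and Aqp1 0.805 and 0.887, against 1.23 (1.17 to 1.29). The other 6 met the condition over all cells: Scarb1 at 0.750 against 1.20, Id3 at 0.792 against 1.40, Plvap at 0.820 against 1.14, H2-D1 at 0.824 against 1.11, Cd200 at 0.835 against 1.09 and Rsad2 at 0.836 against 1.45. Without other-class barcodes, as the venous values are, none of these 6 met it: the capillary ratio was 0.965 for Scarb1, 0.9996 for Id3, 1.03 for Plvap, 0.971 for H2-D1, 1.05 for Cd200 and 1.16 for Rsad2.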

How the results depend on the processing

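Of 1332 alternative values for single genes, 1023 stayed within their counting interval, 266 moved outside it and 43 changed sign. A change of sign was counted only for genes at least 1.5 times higher or lower over all members. Smaller ratios that crossed 1 are therefore not among the 43. Of 322 alternative list medians, 185 moved by less than a fixed step on the log2 scale and 137 by more. No counting error was computed for these medians. Values are log2 ratios of Tom+ over Tom- over all members unless named, and those with 0 Tom+ counts depend on the 1 CPM added. The cause of these shifts was not tested. No paired analysis was possible because each group has 1 library, and for the same reason no library was left out. A mix of sub-clusters was not run, as none had 20 cells in each library.

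With no arterial or venous UMI allowed, the capillary share was 17.5% in Tom+ and 24.0% in Tom-, tdTomato was 4.51, Cxcl12 -1.0, Car4 -0.34, Adamts1 -0.82, Mt1 0.041, Dll1 -0.36 and Fn1 -4.80. Without barcodes found in both libraries, Cxcl12 was -0.20, Krt4 -1.06, Alcam -1.72, Tsku -1.25, Cbr2 -2.36, Aldh3a1 -2.06, Gsta4 -1.99 and Gstm1 -1.59. Without Scrublet doublets Cxcl12 was -1.07. With at least 2 capillary markers, Anxa1 was -0.056, Trp53inp1 -0.15, Mt1 0.15 and Fn1 -4.59, and with the stricter cell filter Fn1 was -4.83. Thinned to 2000 UMIs, 539 genes were higher, tdTomato was 4.45, Mipol1 -0.44, Alcam -3.08, Edn1 0.079 and Igf1 -4.38. With equal weight per cell tdTomato was 4.47. With no filter on low values 2434 genes were higher and 4407 lower, and with a filter of 50 CPM 282 and 259.

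The 2 alternatives chosen after seeing the data were to leave out other-class barcodes, and to do so with under 10 fibroblast UMIs per 10000, and values follow in that order. Cxcl12 was -0.39 and -0.17, Krt4 -2.42 and -2.26, Anxa1 -1.09 and -1.02, Alcam -2.64 and -2.59, Tsku -2.83 and -2.87, Cbr2 -3.82 and -3.10, Aldh3a1 -1.51 and -1.36, Bpgm 0.38 and 0.58, Trp53inp1 -0.31 and -0.40, Gsta4 -1.10 and -0.97, Gstm1 -0.85 and -0.93, and Fn1 -5.23 and -5.23. In the second, the Tom- share was 32.1%.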

Other observations

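In the Tom+ library 3 barcodes met the rule and carried lymphatic transcripts. All 101 UMIs of Nts, the neuropeptide neurotensin, in the 43 Tom+ cells lay in them, at 7, 37 and 57 UMIs per barcode. So did all 8 UMIs of Prox1, a transcription factor of lymphatic endothelium, and all 9 of Cldn11, a tight junction protein. Esm1, Igfbp3, Pcdh17 and Scarb1 were at 0 in these 3 barcodes, and Flt1 had 3 UMIs. In the 218 Tom- cells no Nts UMI was found.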
